A study of Mus musculus with 4 samples.

Results

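Transcripts of endothelial cells were followed in sorted mouse muscle satellite cells, through 37 genes chosen by name as endothelial identity genes. Every probe set whose platform annotation gave one of these symbols alone was taken, which found 36 genes on 67 probe sets, of 18193 genes named on the array. The missing gene was Ly6c1, which the annotation lists only on a probe set shared with Ly6c2, and no gene was named from it. Satellite cells are the stem cells of skeletal muscle and lie against the muscle fibre, close to capillaries. The cells came from mice aged 10 weeks and were sorted for YFP 2 weeks after tamoxifen, without culture. In control mice (Pax7-CreERT2, Calcr+/+, Rosa-YFP) the calcitonin receptor gene Calcr was intact, and in Calcr-cKO mice (Pax7-CreERT2, Calcr flox/flox, Rosa-YFP) both copies were floxed. Both groups thus carried the Cre driver at Pax7, a gene of satellite cells, and the YFP reporter, and both received tamoxifen. Each group had 2 biological replicates, numbered 1 and 2, on 1 array each. The sources used here do not say how many mice each sample pooled or what samples of the same number shared, and p-values measure only the spread between these 4 arrays.

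Endothelial cells line blood vessels. They hold together through VE-cadherin and claudin-5, depend on VEGF and angiopoietin signals received by the Kdr, Flt1, Tie1 and Tek receptors, and keep their identity through ETS factors such as Erg and Fli1 and through the SoxF factors Sox7, Sox17 and Sox18. Skeletal muscle is rich in capillaries, whose cells take up fatty acids with Cd36 and Fabp4 and anchor lipoprotein lipase with Gpihbp1. Some of these genes are also used elsewhere: Tek, Epas1, Cav1 and Ets1 are known from stem and stromal cells, and Lmo2, Tal1 and Fli1 from blood cells.

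The promoters of 15 of the 36 genes were in the RefSeq promoter table (build GRCm38.p6). The 250 bases upstream of the start site are printed for those genes with 1 listed start site and a signal above the filter described below that differed most (Emcn, Kdr) and least (Clec14a, Tek) between the arrays numbered 1 and 2, to show what stands before genes on both sides of that contrast. Capitals mark the ETS letters CAGGAA or CCGGAA on either strand (TTCCTG or TTCCGG when read from the other strand), the 2 spellings searched of the core bound by Erg, Fli1 and Ets1. Emcn lies on the plus strand at chr3:137340828-137341077, Kdr on the minus strand at chr5:75978456-75978705, Clec14a on the minus strand at chr12:58269259-58269508 and Tek on the plus strand at chr4:94739039-94739288.
Emcn: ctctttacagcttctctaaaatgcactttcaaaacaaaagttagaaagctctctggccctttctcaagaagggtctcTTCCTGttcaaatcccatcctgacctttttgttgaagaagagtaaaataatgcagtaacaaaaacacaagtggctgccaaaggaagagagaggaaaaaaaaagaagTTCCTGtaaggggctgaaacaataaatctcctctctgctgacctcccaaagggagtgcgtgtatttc
Kdr: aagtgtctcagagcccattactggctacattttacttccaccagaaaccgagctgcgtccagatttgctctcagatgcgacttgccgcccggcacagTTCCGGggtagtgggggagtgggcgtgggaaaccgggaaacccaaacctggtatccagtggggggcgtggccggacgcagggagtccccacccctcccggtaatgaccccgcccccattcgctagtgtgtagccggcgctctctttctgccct
Clec14a: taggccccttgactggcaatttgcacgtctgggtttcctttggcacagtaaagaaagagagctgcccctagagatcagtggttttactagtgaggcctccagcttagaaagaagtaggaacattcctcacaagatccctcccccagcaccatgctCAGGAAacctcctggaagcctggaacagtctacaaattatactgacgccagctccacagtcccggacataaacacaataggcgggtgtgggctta
Tek: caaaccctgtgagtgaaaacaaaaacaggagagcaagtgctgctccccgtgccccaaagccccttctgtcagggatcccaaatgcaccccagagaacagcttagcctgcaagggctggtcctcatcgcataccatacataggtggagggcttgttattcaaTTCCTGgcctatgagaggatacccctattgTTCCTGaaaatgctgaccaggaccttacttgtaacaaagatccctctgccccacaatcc
The Emcn window held CAGGAA at 2 places, 173 and 67 bases before the start site, and the Tek window also at 2, at 89 and 59 bases. Kdr had CCGGAA at 153 bases and Clec14a CAGGAA at 95 bases. Genes with a large and with a small difference thus both carried the letters. Over the 21 windows of the 15 genes, 8 held CAGGAA, against 25.7% of all 32851 windows of this length in the table, and 1 held CCGGAA, against 12.0%. The composite FOX and ETS letters AACAGGAA, which contain CAGGAA, stood in 2 windows, those of Emcn and Egfl7, against 2.25% of all windows. The other letters searched on both strands were those of SOX factors, ACAATG (2 windows, against 10.7%) and ACAAAG (4, against 16.5%), of GATA factors, AGATAA (2, against 9.99%), and of KLF factors, CACCC (12, against 52.0%). A match is a description of the letters only.

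Satellite cell transcripts were found on every array, which does not tell how pure the sorted cells were. All 12 satellite cell markers examined were above the filter signal of 63.9, the median level of a probe set, on every array. Pax7, the defining transcription factor, read 2319 and 3647 in control and 2170 and 2434 in cKO (replicates 1 and 2 in this order, here and in all such pairs; values are MAS5 signals). Calcr read 1268 and 1424 in control and 568 and 684 in cKO, both cKO arrays below both control arrays. Array medians ran from 57.8 to 70.4. Of 22519 probe sets tested, 521 differed between the arrays numbered 1 and 2 (limma, adjusted p under 0.05), and 477 of them, 2.12% of those tested, were higher on number 1.

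Endothelial genes were far brighter on the arrays numbered 1 than on those numbered 2, in control and in cKO alike. The median fold between the numbers was 10.1 in control and 8.08 in cKO. It depends on dim number 2 signals: over both pairs the median log2 difference was 3.19, and 2.47 with a pseudocount of 32 in place of 1. In all, 35 of the 36 genes had both number 1 arrays above both number 2 arrays, where 21.7% of all 18193 named genes had. Without any filter on low signals, 30 of 36 were at least 2-fold higher on number 1 in both genotypes, where 4.48% of all 18193 named genes were. Fitted over all probe sets without a filter, limma called 27 of 36 higher on number 1, where it called 1.25% of all genes, and none lower. After the filter 33 of the 36 remained, 27 of them called, against 2.55% of 10140 genes. The fits shared 25 called genes: Ets1 and Plvap were called only with the filter, and Tie1 and Tal1 only without it. Passing the filter depended for many genes on their number 1 arrays, since only 15 reached the filter signal on both number 2 arrays. Signals of a bulk sample cannot tell a different share of endothelial cells from a different amount of these transcripts per cell. The same genes were in part already known to differ in this way when they were chosen, so these counts describe the pattern and do not test it anew.

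**Figure D1:**
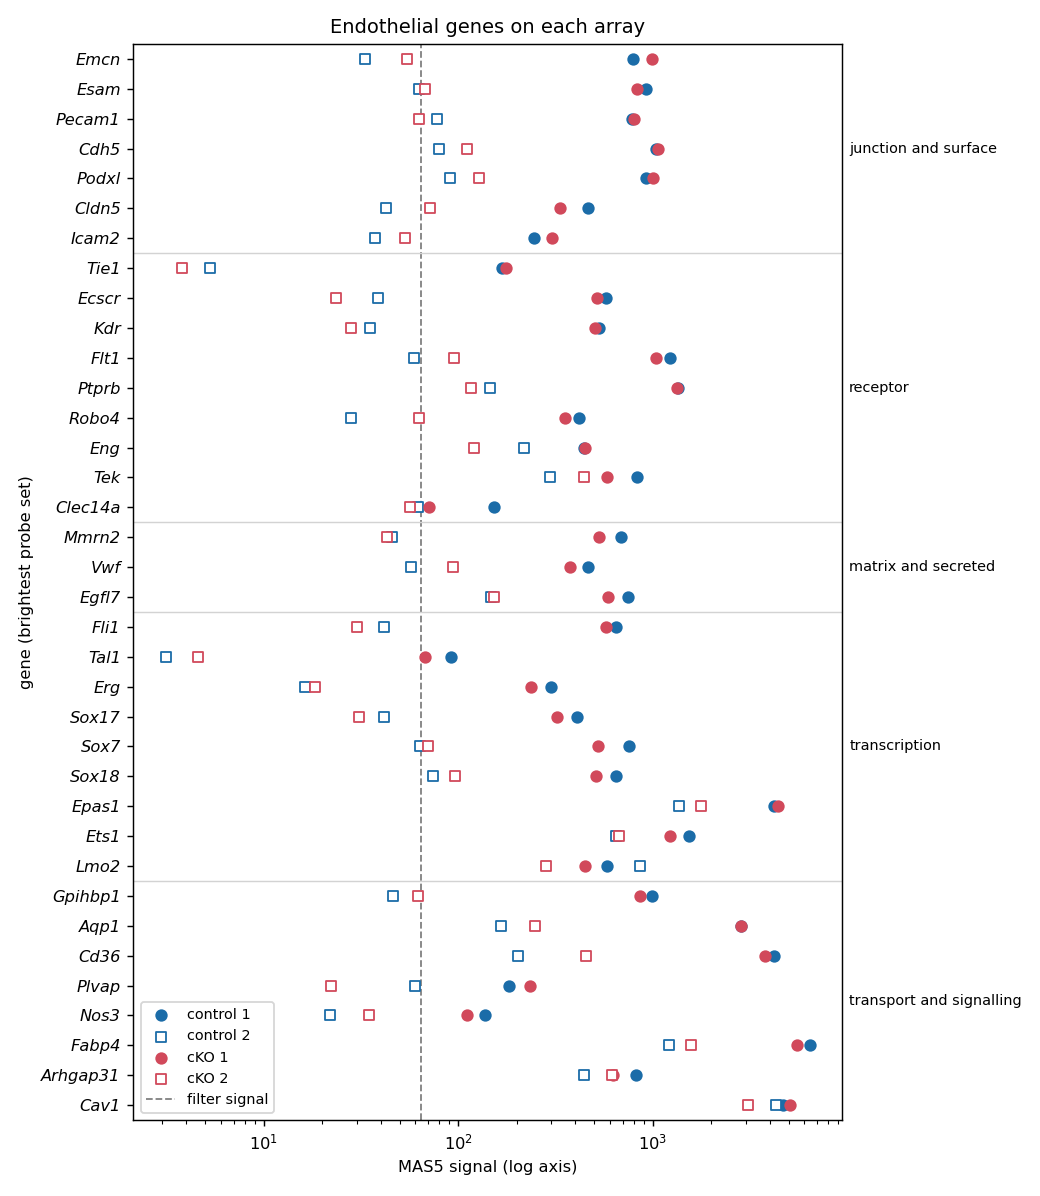
MAS5 signal (log axis) of the brightest probe set of each of the 36 genes on each array, grouped by role; circles are replicates numbered 1, squares those numbered 2, blue is control, red is cKO, and the dashed line is the filter signal of 63.9. Circles lie right of the squares for every gene but Lmo2, whose brightest array was control 2, and circles of both genotypes lie close together.

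Genes of endothelial junctions and of the cell surface differed as a block: all 7 were called in the main fit. Cdh5, the VE-cadherin of adherens junctions, read 1044 and 79.7 in control and 1060 and 110 in cKO. Pecam1, an adhesion molecule of endothelial contacts, read 778 and 77.5 in control and 798 and 62.8 in cKO. Esam, an adhesion molecule of tight junctions, read 918 and 62.5, then 826 and 67.4. For each of these 3 genes the number 1 arrays differed little between genotypes, and the number 2 arrays lay near the filter signal. Emcn, the sialomucin endomucin, had the largest difference among the 33 genes that passed the filter. It read 787 and 33.2 in control and 996 and 54.3 in cKO, a log2 difference of 4.35 ± 0.33 (SE, limma adjusted p = 7.8e-05), or 3.61 with a pseudocount of 32. Cldn5, the claudin of tight junctions, differed more in control (462 and 42.7) than in cKO (334 and 71.9). Icam2, a ligand of leukocyte integrins, read 244 and 37.2, then 304 and 52.9. Podxl, a sialomucin that other epithelia also make, read 920 and 90.9, then 1008 and 128.

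Among the 9 receptors the VEGF receptors and, below the filter, Tie1 differed strongly, while Tek, Eng and Clec14a did not pass. Kdr, the main VEGF receptor of endothelium, read 526 and 35.1 in control and 505 and 28.0 in cKO, a log2 difference of 3.997 ± 0.31 (SE, limma adjusted p = 8.54e-05). Flt1, the decoy-like VEGF receptor, read 1226 and 58.9, then 1036 and 94.6 (log2 difference 3.90 ± 0.31, SE, limma adjusted p = 9.81e-05). Its 4 probe sets all gave the same direction, from 3.25 to 4.34. Tie1, an orphan partner of Tek, fell below the mean filter, with 168 and 5.27 in control and 175 and 3.82 in cKO. It was called only in the fit without a filter (limma adjusted p = 0.00362). Ptprb, the phosphatase that restrains Tek, read 1346 and 145, then 1328 and 117. Its other probe sets differed even more, with log2 differences of 4.77 and 4.61. Ecscr, a regulator of endothelial migration, read 574 and 38.7, then 519 and 23.6 (log2 difference 4.13 ± 0.34, SE, limma adjusted p = 0.000111). With a pseudocount of 32 the differences of Ecscr and Kdr were 3.21 and 3.11. Robo4, the vascular member of the Slit receptor family, read 416 and 27.9, then 353 and 63.0.

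Tek, the angiopoietin receptor, stayed bright on every array, at 832 and 295 in control and 579 and 444 in cKO. Its log2 difference of 0.94 ± 0.30 (SE) did not pass (limma adjusted p = 0.181). Without 1 array this difference ran from 0.64 (without control replicate 2) to 1.23 (without cKO replicate 2). Eng, a coreceptor for TGF-beta family ligands that stromal cells also use, read 443 and 217, then 449 and 121, just outside the threshold (limma adjusted p = 0.0529). Its other probe set, at 308 and 54.0, then 334 and 85.5, differed more. Clec14a, a lectin-like receptor of vessels, was dim throughout, at 153 and 62.3 in control and 70.7 and 56.4 in cKO. The difference was 0.80 ± 0.42 (SE, log2) and did not pass (limma adjusted p = 0.445). It was the largely endothelial gene with the smallest difference, and its other probe set stood at 1.31.

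The secreted and matrix products differed in the same direction, and all 3 were called. Mmrn2, a matrix ligand of Clec14a, read 685 and 45.6 in control and 526 and 43.2 in cKO. Vwf, the von Willebrand clotting factor, read 467 and 57.2, then 375 and 93.9. Egfl7, an endothelial matrix factor, read 745 and 147, then 586 and 153. Its 4 probe sets, of which the brightest is of a cross-hybridising type by its suffix, gave log2 differences between 2.11 and 2.33.

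Of the 9 transcription regulators, 7 were at least 2-fold higher on number 1 in both genotypes, and 7 of the 8 that passed the filter were called. Erg, the ETS factor closest to endothelial identity, read 300 and 16.4 in control and 238 and 18.3 in cKO. Fli1, its relative that blood cells also express, read 647 and 41.3, then 578 and 29.99 (log2 difference 4.08 ± 0.31, SE, limma adjusted p = 7.89e-05), or 3.26 with a pseudocount of 32. Sox7 read 752 and 63.4, then 525 and 69.6, and Sox18 read 645 and 73.9, then 512 and 96.5. Sox17 read 409 and 41.6, then 323 and 31.0. All 3 SoxF genes were called, though a dimmer probe set of Sox7 differed by 0.82 only. The brightest probe set of Sox17 is of a cross-hybridising type by its suffix. Its other probe set, at a log2 difference of 3.28, did not pass the filter. Tal1, a blood and endothelial helix-loop-helix factor, did not pass the filter, at 91.4 and 3.13, then 67.2 and 4.58, and was called in the fit without it (limma adjusted p = 0.016).

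Ets1, Epas1 and Lmo2 were present on all 4 arrays. Ets1 read 1537 and 648 in control and 1222 and 670 in cKO. Its log2 difference of 1.06 ± 0.22 (SE) passed in the main fit (limma adjusted p = 0.0344) and was lost in 8 of 13 alternatives (adjusted p from 0.0517 to 0.572), among them the fits without control replicate 1 (0.572) and without cKO replicate 1 (0.171). Its 4 probe sets gave differences between 1.06 and 1.46. Epas1, the hypoxia factor HIF-2 alpha, which quiescent satellite cells are also known to use, read 4214 and 1364, then 4398 and 1765, and was called at a log2 difference of 1.47. Lmo2, a LIM-only cofactor of Tal1, was the exception: it read 584 and 864 in control and 448 and 282 in cKO. The control arrays thus went the other way from the cKO arrays, and the difference of 0.05 ± 0.44 (SE, log2) did not pass (limma adjusted p = 0.978). Its direction turned to -0.14 with arrays centred on their median and to -0.023 after quantile normalization. Lmo2 was brightest on the array with the largest summed signal of 12 leukocyte markers (2544 on control 2) and dimmest on the array with the smallest (569 on cKO 2), with 1518 and 1574 on control 1 and cKO 1. The part of leukocytes in the Lmo2 signal was not tested.

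Of 8 genes of lipid handling, water transport and signalling, 6 were at least 2-fold higher on number 1 in both genotypes, and 5 of the 7 that passed the filter were called. Fabp4, a fatty acid carrier of capillaries and fat, read 6421 and 1209 in control and 5482 and 1574 in cKO. Its next probe set, at 5002 and 421, then 5039 and 747, differed more. Cd36, the fatty acid translocase, read 4192 and 202, then 3762 and 453. Aqp1, the water channel, read 2854 and 165, then 2827 and 249, and had the smallest p of the 36 genes (limma adjusted p = 5.62e-05). Gpihbp1, which anchors lipoprotein lipase on capillaries, read 987 and 46.2, then 857 and 62.0 (log2 difference 4.08 ± 0.29, SE, limma adjusted p = 6.96e-05), or 3.47 with a pseudocount of 32. Of 5 adipocyte markers measured, Adipoq, Lep, Cidec and Retn were below the filter signal on all 4 arrays, and Pparg, a regulator of fat cells that capillaries also use, read 134 and 21.0, then 202 and 4.34. Plvap, a diaphragm protein of fenestrated vessels, read 182 and 59.8, then 233 and 22.1, called in the main fit (limma adjusted p = 0.0206) and not without the filter (0.0834), and Nos3, the endothelial nitric oxide synthase, read 137 and 21.9, then 111 and 34.8.

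After Lmo2, Cav1 and Arhgap31 stood nearest to no difference. Cav1, the coat protein of caveolae, read 4659 and 4277 in control and 5055 and 3070 in cKO, a log2 difference of 0.42 ± 0.16 (SE) that did not pass (limma adjusted p = 0.266). Without 1 array this difference ran from 0.18 (without cKO replicate 2) to 0.66 (without control replicate 2). Arhgap31 read 815 and 441, then 627 and 619 (0.45 ± 0.27, SE, log2, limma adjusted p = 0.511). Its cKO arrays were nearly equal while its control arrays were not. Its 3 other probe sets were higher on number 1 in both genotypes.

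**Figure D2:**
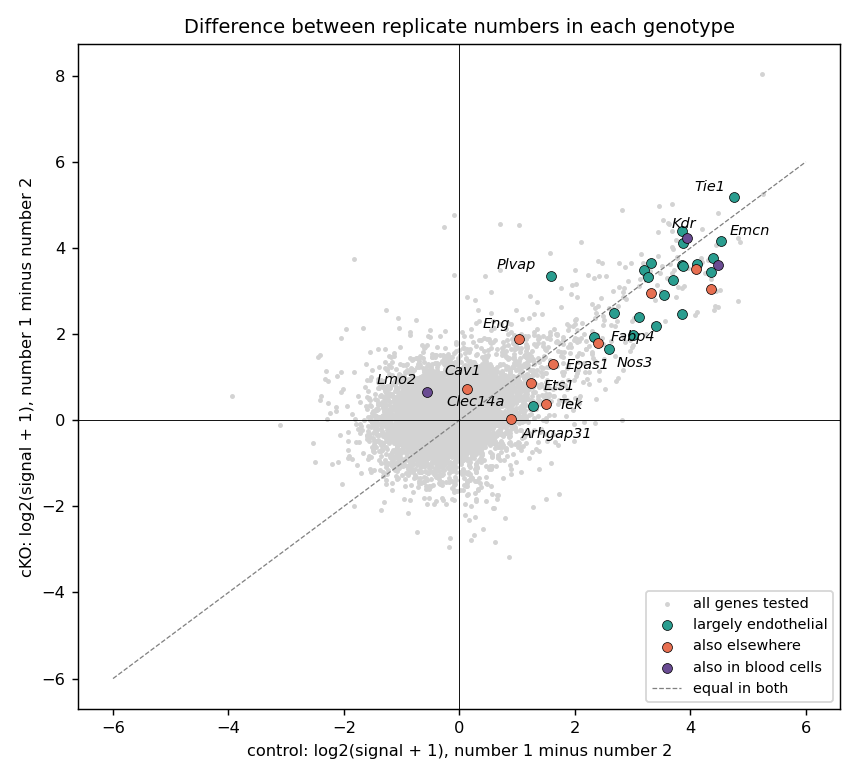
Log2 difference of signal + 1 between the arrays numbered 1 and 2 in control (horizontal) and in cKO (vertical) for 10140 tested genes (grey) and the 36 endothelial genes coloured by where they are known to be expressed. The largely endothelial genes lie at the upper right along the line of equality, while Lmo2, Cav1, Arhgap31, Tek and Clec14a lie in or near the grey cloud.

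By fold, though not by signal difference, the genes sorted largely by where they are known to be expressed. The 23 largely endothelial genes had a median fold of 10.2 between the numbers, and 22 of them were at least 2-fold higher on number 1 in both genotypes, Clec14a being the exception. The 10 genes also known from muscle, stromal, fat or stem cells had a median fold of 2.76, and 6 of them met this rule: Podxl, Eng, Epas1, Cd36, Fabp4 and Aqp1. A fold falls as the signal on number 2 rises. The median signal difference, number 1 minus number 2, was larger for these 10 genes (859 in control, 1432 in cKO). For the 23 largely endothelial genes it was 536 in control and 432 in cKO. Of the 3 genes shared with blood cells, Fli1 and Tal1 differed strongly and Lmo2 did not. These classes came from textbook knowledge, and the difference between them was not tested. By level, 15 genes were below the filter signal on both number 2 arrays, namely 13 largely endothelial genes, Fli1 and Tal1. Their folds had a median of 14.6, but since the number 2 signal sets this group, the value is a description. All 10 genes also known elsewhere were above the filter signal on both number 2 arrays, as were Lmo2 and 4 largely endothelial genes, Cdh5, Ptprb, Egfl7 and Sox18.

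The size of the difference was similar in the control pair and in the cKO pair, which share no sample, but more often larger in control. On the log2 scale 25 genes differed more in control and 11 more in cKO. Over all genes tested the median was -0.17 in control and 0.13 in cKO. Across the 36 genes the log2 differences of the pairs had a Pearson correlation of 0.853 and a Spearman correlation of 0.851, as a description, since genes of one array share its RNA and scaling. On the signal scale, the excess of number 1 over number 2 in cKO had a median ratio of 0.83 to that in control over the 35 genes with an excess in both. The ratio was below 1 for 26 of them. Cdh5 had an excess of 964 in control and 949 in cKO, Ptprb 1201 and 1211, Kdr 491 and 477, and Aqp1 2689 and 2579. These were nearly equal. Cldn5 (419 and 262), Sox7 (688 and 456) and Vwf (409 and 281) had a smaller excess in cKO, and Icam2 (207 and 251) and Emcn (754 and 941) a larger one. Cav1 (382 and 1984), Tek (537 and 135) and Arhgap31 (375 and 7.6) departed most from equality besides Clec14a.

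**Figure D3:**
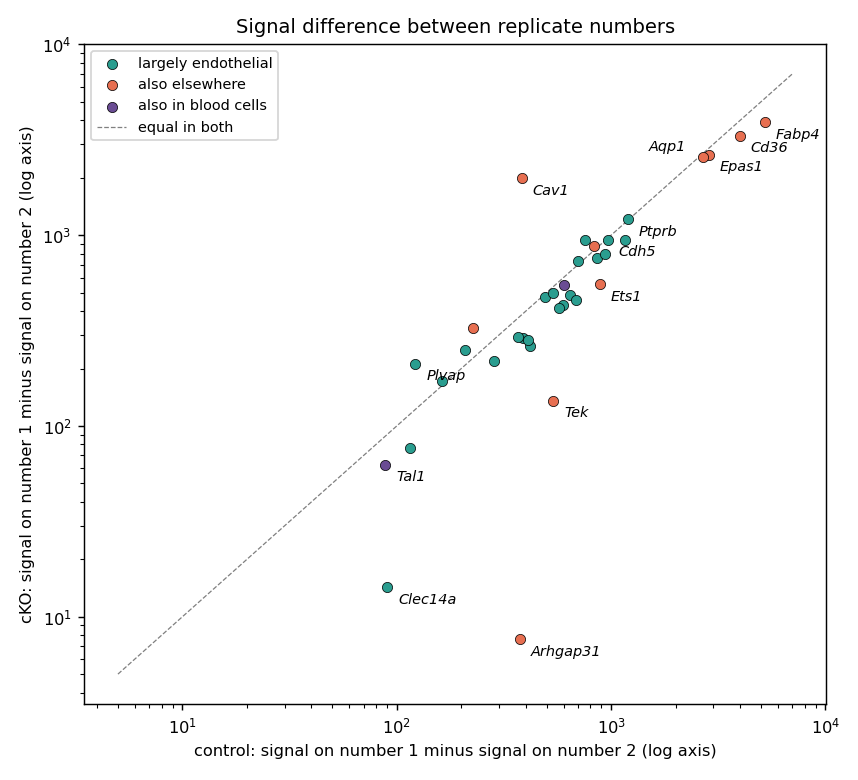
Signal on the array numbered 1 minus signal on the array numbered 2 (log axes) in control (horizontal) and cKO (vertical) for the 35 genes with a positive value in both; the dashed line marks equal values and colours give where a gene is known to be expressed. Most genes lie on or just below the line, from Tal1 to Fabp4, and Cav1, Tek, Clec14a and Arhgap31 lie away from it.

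Almost all probe sets of a gene told the same story. Of the 67 probe sets, taken without a filter, 66 were higher on number 1 in both genotypes. Both number 1 arrays lay above both number 2 arrays for 65, where 21.7% of all 18193 named genes had this by their brightest probe set. At least 2-fold higher in both genotypes were 57, where 4.48% of all named genes were. Among probe sets that passed the filter this share was 2.86%. Among the 17 genes with several probe sets, the brightest one gave the smallest difference for 10, Ptprb, Fabp4, Eng, Epas1 and Ets1 among them.

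Further endothelial genes outside the 36 behaved alike. Of 23 measured, 18 were at least 2-fold higher on number 1 in both genotypes, and 14 of 17 that passed the filter were called. Tm4sf1, a tetraspanin-like surface protein, read 2264 and 342 in control and 2066 and 416 in cKO, and Apold1, an early response gene of endothelium, read 1850 and 126, then 2118 and 250. Gng11, a G protein subunit, was called at a log2 difference of 1.30. Ramp2, the partner of the calcitonin receptor-like receptor, did not follow: it read 653 and 926, then 855 and 1044, a log2 difference of -0.39 (limma adjusted p = 0.503).

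Vessel segments were compared through short lists, as descriptions. Of 9 capillary genes measured, 8 were at least 2-fold higher on number 1 in both genotypes, with a median log2 difference of 3.84; 1 of them, Kdr, is among the 36. Timp4 read 2588 and 207, then 2603 and 110, and Car4, a capillary carbonic anhydrase, read 751 and 40.3, then 677 and 49.0. Rgcc was at a log2 difference of 1.46, and Lpl, the lipase that Gpihbp1 holds, at 0.79 (limma adjusted p = 0.0774). Of 10 arterial genes 7 met the rule (median 1.76), Efnb2 at 1.84 and Sema3g at 3.28, while Unc5b stood at 0.92 and the Notch target Hey1, which satellite cells use too, at -0.01. Of 8 venous genes 4 met it (median 1.13). Among these, Selp, P-selectin, read 1376 and 80.4, then 1079 and 198, while Nr2f2 (0.56), Il1r1 (-0.08) and Vcam1 (-0.13, also a satellite cell marker) did not pass. Of 6 lymphatic genes 1 met it, the receptor Flt4 at 2.89, and Reln was at 1.10. Pdpn, bright on all arrays at 4894 to 5155, and Prox1 (1525 and 1945, then 1443 and 2500) were not higher on number 1, and Lyve1 and Mmrn1 were below the filter signal on all arrays.

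Ligands of these receptors were mostly not part of the difference. Of 11 VEGF and angiopoietin genes measured, 3 were at least 2-fold higher on number 1 in both genotypes: the coreceptors Nrp1 (1365 and 325, then 1412 and 394) and Nrp2 (388 and 52.2, then 307 and 25.1) and the apelin receptor Aplnr. Vegfa read 801 and 1024, then 848 and 612, and Vegfc read 1911 and 1587, then 1559 and 1783. The numbers overlapped for both ligands.

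Markers of other cell types moved with the endothelial genes in part. Of 12 pericyte and smooth muscle genes, 7 were at least 2-fold higher on number 1 in both genotypes and 5 were called, with a summed signal of 18455 and 21156 on number 1 against 13044 and 10382 on number 2. Rgs5, a pericyte regulator of G protein signalling, read 5200 and 442, then 4828 and 649. Myh11, the smooth muscle myosin, read 687 and 62.2, then 951 and 44.6. The others called were Pdgfrb (log2 difference 2.70), Kcnj8 (2.62) and Abcc9 (1.77). Acta2 (4288 and 4190, then 4947 and 3562), Notch3 and Des did not pass (log2 differences 0.25, -0.09 and -0.12). Nor did Tagln (0.03), Mcam (0.90) and Cspg4 (1.45). Of 4 Schwann cell genes measured, Mbp, a myelin protein, was called, at 1249 and 96.2, then 1194 and 55.4. Ngfr (-0.26) and S100b (1.17) did not pass, and Sox10, the defining factor, was below the filter signal on all arrays. Among leukocyte genes (12 measured, 6 tested after the filter) and fibro-adipogenic genes (9 measured, 5 tested), none was called by number. Nor was any muscle fibre gene (10 measured, 9 tested) or erythroid and platelet gene (8 measured, 2 tested). So few tested genes cannot show that a list did not differ. Over all genes tested, 2.55% were called higher on number 1 and 0.266% lower. The summed signals of the leukocyte and fibre lists overlapped between the numbers. Those of the fibro-adipogenic list were 14565 and 16838 on number 1 against 19839 and 19075 on number 2, and those of the erythroid and platelet list 221 and 340 against 447 and 358. In the fibro-adipogenic list Col3a1, Dpt, Col1a1 and Dcn were bright on every array, at log2 differences of -0.26, -0.07, -0.72 and -0.23. Pdgfra, Pi16 and Dpp4 were below the filter signal on all arrays. Cd248, which pericytes share, was at 2.05 and did not pass the filter, so it was not tested. The leukocyte genes Cd68 (0.64), Lyz2 (1.63), Cd74 (-0.58) and Laptm5 (0.88) and the fibre genes Actn3 (0.24), Acta1 (0.19), Myh1 (0.29) and Tnnt3 (0.57) did not pass. The platelet genes Gp1bb (-0.55) and Pf4 (-0.64) were dim. The part of any such cell type in the endothelial difference was not tested.

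Satellite cell markers gave no call between the numbers. None of 12 was called, where 2.55% of all genes tested were called higher on number 1 and 0.266% lower. At those shares no call among 12 genes is unremarkable, so it does not show that the markers were equal. The summed signal of the markers was 25406 and 24233 on number 1 and 34150 and 25139 on number 2. The median log2 difference of the list was -0.17, and Pax7, Myf5, Heyl and Cxcr4 had both number 1 arrays below both number 2 arrays. The share of all genes lower on number 1 in this way was not counted. In the other direction 21.7% of all 18193 named genes had no overlap, and the 4 markers are given as a description only. Sdc4 (-0.12), Vcam1 (-0.13), Cxcr4 (-0.18) and Fgfr4 (-0.15) and Pax7 (-0.41) did not pass. Myf5, a myogenic factor, read 2028 and 3002, then 1878 and 2843, and did not pass either (limma adjusted p = 0.0912).

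**Figure D4:**
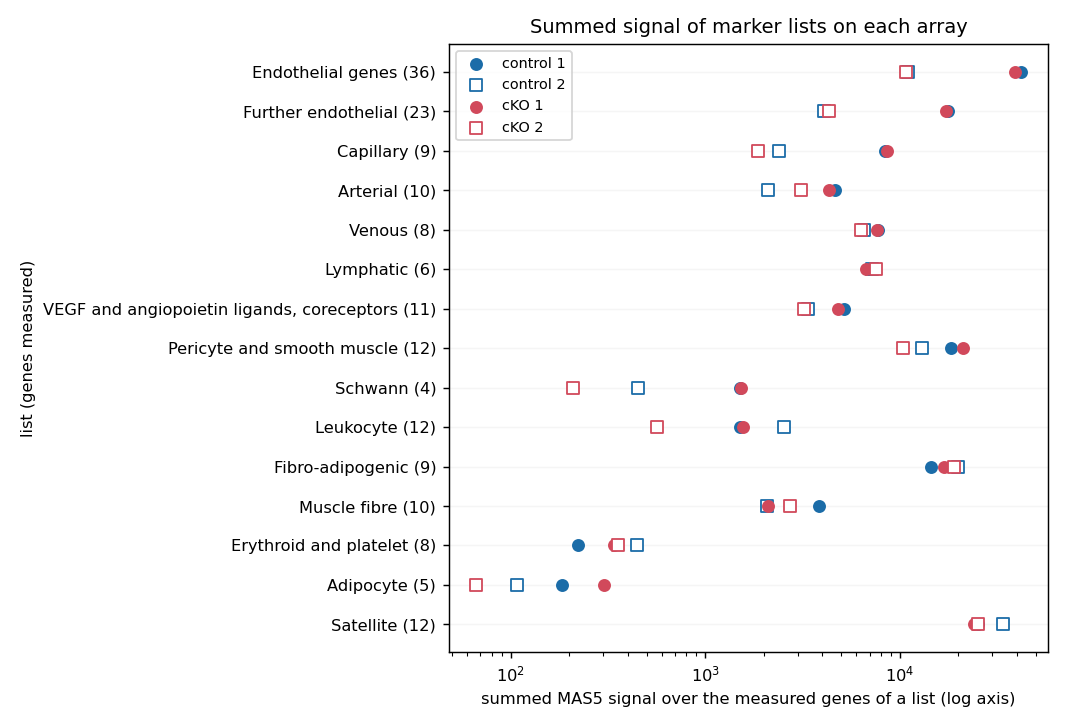
Summed MAS5 signal (log axis) of the measured genes of each list on each array, with the number of genes in brackets; circles are replicates numbered 1, squares those numbered 2, blue is control and red is cKO. Circles lie right of squares for both endothelial lists and for the capillary, arterial, venous, VEGF and angiopoietin, pericyte, Schwann and adipocyte lists, and left of them for the lymphatic, fibro-adipogenic and erythroid and platelet lists. They overlap for the leukocyte, muscle fibre and satellite lists, the last highest on control 2.

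Between genotypes the endothelial genes gave no call. Of the 33 tested, 0 had a limma adjusted p under 0.05, where 0.0% of all genes tested had one, and 1 had an unadjusted p under 0.05, against 0.72% of 10140 genes. The replicate number is not a term of this fit, so the spread between numbers widened its errors: for Cdh5 the SE of the log2 difference between genotypes was 1.32. An exact 2-sided permutation test of a single gene, by genotype or by number, could not go below p = 0.333 in this design. Of the 36 genes 19 were lower and 17 higher in cKO, with a median log2 difference of -0.01 (0.08 with arrays centred on their median), beside -0.04 over all genes tested. None was at least 2-fold apart without overlap, where 0.444% of genes tested were. Only Lmo2 had arrays that did not overlap between genotypes, and it was lower in cKO; of all named genes 15.8% were lower in this way and 9.44% higher.

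Lmo2 also had the smallest p, at 724 ± 198 in control and 365 ± 117 in cKO (SD, n = 2). Its log2 difference was -0.997 ± 0.36 (SE, limma unadjusted p = 0.0272, limma adjusted p = 0.99999). The next in order of p were Clec14a, at 107 ± 63.8 and 63.5 ± 10.1, Cav1, at 4468 ± 270 and 4062 ± 1403, and Eng, at 330 ± 160 and 285 ± 232 (SD, n = 2). Their log2 differences were -0.62, -0.18 and -0.41, and the arrays of all 3 overlapped between genotypes. The other probe set of Eng stood at 0.38, on the opposite side of 0. Each of these differences turned above 0 without 1 array: for Clec14a to 0.020 without control replicate 1, for Cav1 to 0.18 without cKO replicate 2, and for Eng to 0.099 without the former and to 0.53 without the latter.

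Within each number, the median of the genes lay on opposite sides of 0, while single genes differed by up to -1.61 (Lmo2 on number 2). Between the arrays numbered 1, 26 of 36 genes were lower in cKO, with a median log2 difference of -0.22, beside 0.09 over all genes tested. Between the arrays numbered 2, 23 were higher in cKO, with a median of 0.26, beside -0.19 over all genes. Cd36 was at -0.16 on number 1 and 1.16 on number 2, Robo4 at -0.23 and 1.15, and Cldn5 at -0.47 and 0.74. Plvap was at 0.36 and -1.40, Clec14a at -1.10 and -0.14, and Lmo2 at -0.38 and -1.61. Emcn, Icam2, Podxl, Cdh5 and Epas1 were higher in cKO within both numbers, from 0.02 to 0.69. Kdr, Ptprb, Fli1, Ecscr, Sox17, Mmrn2, Clec14a and Lmo2 were lower within both. Each comparison within a number rests on 1 array a group and has no test. Leaving out 1 array unbalances the numbers: the genotype median of the 36 genes became 1.62 without control replicate 1, -1.59 without control replicate 2, -1.37 without cKO replicate 1 and 1.57 without cKO replicate 2.

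**Figure D5:**
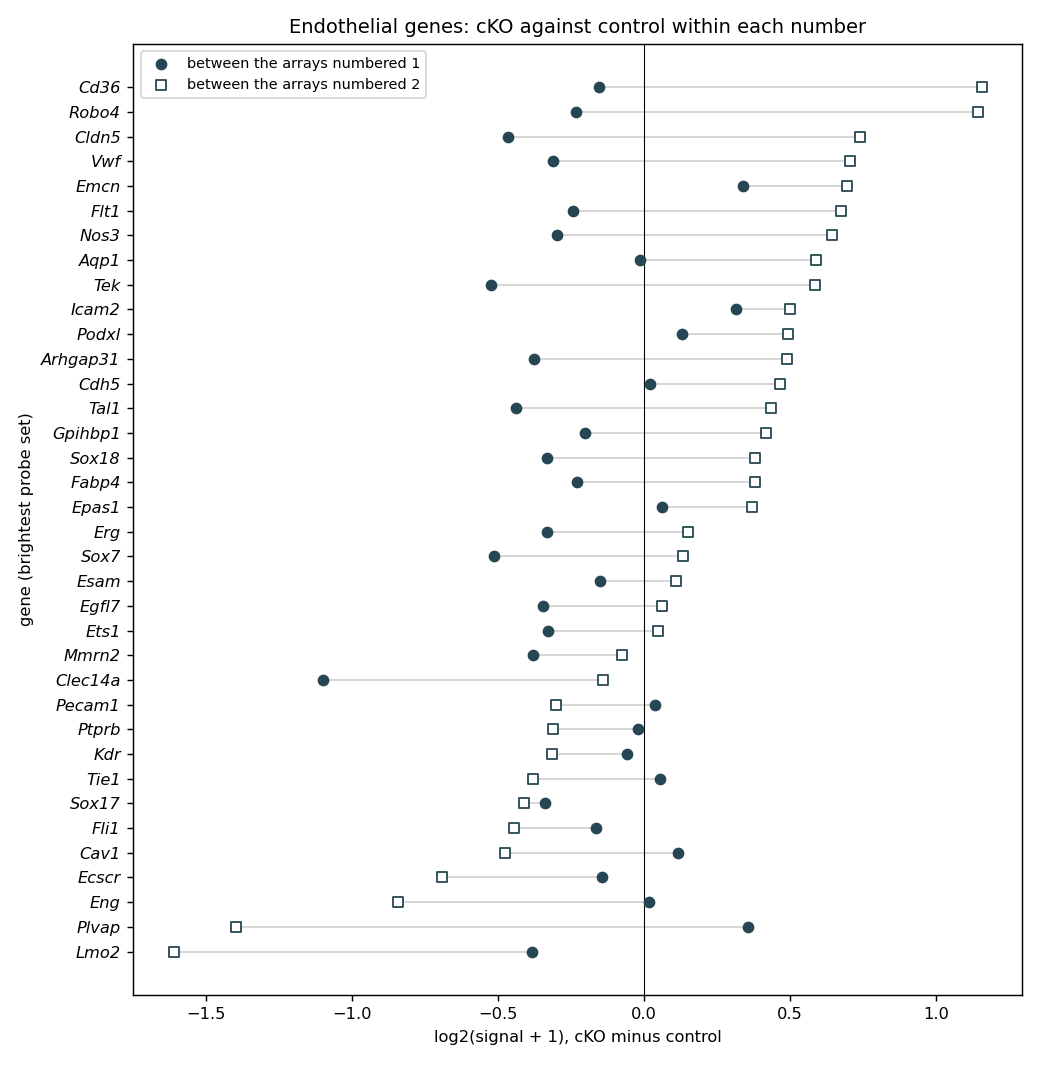
Log2 difference of signal + 1 between cKO and control for each of the 36 genes, between the arrays numbered 1 (circles) and between the arrays numbered 2 (squares), ordered by the latter; a grey line joins the points of a gene. Most circles lie a little below 0 and most squares above it, with Lmo2 and Plvap lowest among the squares.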

How the data were processed

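Total RNA of YFP-positive sorted cells was hybridised to 1 array per sample with biotin labelling, per the labels' protocols. According to the submitters' processing notes the authors used MAS5; the deposited value of a probe set on an array is its MAS5 signal, an intensity on a linear scale. MAS5 can scale arrays as a whole, with a target and detection calls not used here. Symbols were taken from the platform annotation, and all 36 genes had the same symbol by Entrez identifier in the RefSeq table. Values were analysed as log2(signal + 1) with no further normalization. The added 1 makes log2 differences of dim genes slightly smaller, while signals near background leave their size uncertain. The median folds within control and within cKO are ratios of signals without the added 1. Probe sets were kept at a mean log2 value over all 4 arrays at or above the median, 22519 of 45101, AFFX controls left out. A gene was its brightest probe set, 10140 genes in all.

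Replicate numbers (1 minus 2) and genotypes (cKO minus control) were each tested in limma (version 3.58.1, R version 4.3.3: lmFit, eBayes with an intensity trend, 2 residual degrees of freedom), Benjamini-Hochberg adjusted at 0.05 over all kept probe sets. Alternatives covered scaling, pseudocount, filter, trend, probe set choice, a replicate block and leaving out each array. The steps were tested on simulated arrays, whose noise came from a fit with both number and genotype. Simulated genotype runs thus lacked the spread between numbers, and they do not show how the genotype fit performs here. The number of arrays limits the precision. The p-values by number and by genotype lean on spread borrowed from other probe sets. This added 7.88 prior degrees of freedom by number and 5.32 by genotype. Statistics are given for the 6 largest and 6 smallest number differences and the 4 smallest genotype p-values among the genes, and of each other list up to 4 of the brightest genes; other genes, chosen after their values were seen, are given as examples. The genes and lists were chosen with earlier results of these data known.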

Additional observations from a re-analysis of the deposited data

Results flagged for a closer look

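Lmo2 was the only one of the 36 genes whose difference between the numbers went opposite ways in the genotypes. On the log2 scale, number 1 minus number 2 was -0.56 in control and 0.66 in cKO. Each value rests on 1 pair of arrays, and the difference between them was not tested.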

How the results depend on the processing

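The number comparison kept its direction throughout: the median log2 difference of the endothelial genes was 3.005 to 3.25 under alternatives other than a pseudocount of 32 (2.47), and without 1 array 3.09 to 3.32. Between 23 and 30 of these genes were called without 1 array, and 9 under the stricter filter (75th percentile), which kept 15. Over all probe sets 141 were called under that filter and 209 to 1872 without 1 array (209 without control replicate 1, 1872 without control replicate 2, 228 without cKO replicate 1, 1555 without cKO replicate 2). The 2-fold rule by number gave 712 probe sets, 2645 without a filter, 176 under the stricter one, and 1878 to 2563 without 1 array, where only 1 pair must reach 2-fold. Centring arrays on their median moved the median of all genes by number from -0.03 to -0.21.

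For genotype, 0 probe sets were called, and 0 to 5 without 1 array. Fitting the replicate number as a block called 5, none of them an endothelial gene. The same fit with both factors called 606 probe sets and 28 endothelial genes by number. Deviations of arrays of the same number correlated at 0.43 over probe sets, but with 2 pairs the samples share only a number. The 2-fold rule by genotype gave 123 probe sets, 48 with a pseudocount of 32, 2727 without a filter, 22 under the stricter one, and 519 to 1049 without 1 array. It gave 0 endothelial genes, and 6 to 22 without 1 array, where the numbers are unbalanced. The genotype median ran from -1.59 to 1.62 without 1 array. The difference of Lmo2 by number reversed after quantile normalization (-0.023), with centred arrays (-0.14), without control replicate 1 (-0.14) and without cKO replicate 2 (-0.76), in a range of -0.76 to 0.86 without 1 array. By genotype, leaving out 1 array moved Clec14a from -1.26 to 0.020, Cav1 from -0.54 to 0.18 and Eng from -1.36 to 0.53, reversed without control replicate 1 (Clec14a, and Eng at 0.099) or cKO replicate 2 (Cav1, Eng). The cause was not tested. Dim signals near background limit the folds of genes such as Tie1, Tal1, Erg, Ecscr, Kdr and Fli1.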
